A study of Homo sapiens with 12 samples.

Results

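The genes followed here encode the nuclear subunits of the mitochondrial respiratory chain and of ATP synthase, in RNA-seq libraries of MOLM14 cells, an established human line from an acute myeloid leukemia with monocytic features and a KMT2A fusion. Members were the protein-coding genes whose current symbol is that of a numbered NDUFA, NDUFB, NDUFC, NDUFS or NDUFV subunit, of SDHA to SDHD, a UQCR gene or CYC1, a COX4 to COX8 gene, or an ATP5F, ATP5M or ATP5P gene. This rule found 87 of the 61487 genes counted, and 80 of them were among the 16104 genes that passed a filter on low counts and were tested. Complex I had 7 core and 29 accessory members, complex II had 4, complex III 10, complex IV 18 and complex V 19. NDUFA4 carries a complex I name but is now counted among the complex IV subunits, and is placed there. UQCRHL is a near-identical copy of UQCRH and ATP5MF-PTCD1 is a readthrough of ATP5MF into its neighbour, so reads of these genes may be split between them.

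In every group the cells carried a construct (shRIP140) from which doxycycline (DOX) induces an shRNA to RIP140. RIP140 is the product of NRIP1 and binds nuclear receptors as a coregulator. The ATRA+DOX group received the retinoid ATRA (all-trans retinoic acid) at 1 µM over 48 h together with DOX (50 ng/mL, renewed every other day), the DOX group DOX alone, the ATRA group ATRA alone, and untreated cells neither, with 3 biological replicates each. In the groups compared here DOX is never given without the shRNA, so an action of the knockdown and one of doxycycline itself, an antibiotic known to inhibit mitochondrial ribosomes, cannot be told apart. The labels do not say whether the shRNA line is a clone or a pool. RIP140 is known, mainly from mouse fat and muscle, to hold down genes of oxidative metabolism, so the question asked of these genes is whether they change when NRIP1 is lowered, with and without the retinoid.

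Library totals ran from 2685984 counts (DOX replicate 3) to 19358619 counts (DOX replicate 2). NRIP1 had 15.9 to 20.9 CPM (the usual read count normalised to library depth, here TMM-scaled between libraries) in ATRA+DOX and 15 to 19.2 CPM in DOX libraries, against 38.4 to 51.9 CPM in ATRA and 53.3 to 59.7 CPM in untreated libraries. It fell with DOX (log2 change −1.77 ± 0.13, edgeR adjusted p = 1.47e-07) and with ATRA alone (−0.39 ± 0.12, edgeR adjusted p = 0.0185), the second change missing the threshold at equal depth. The summed level of 11 myeloid markers was 1957 to 2139 CPM in ATRA+DOX, 1801 to 1849 CPM in DOX, 1841 to 2010 CPM in ATRA and 1517 to 1662 CPM in untreated libraries. Of those markers CD14 was at 0 to 0.321 CPM. CEBPA led the sum, with means of 1034 CPM in ATRA+DOX, 736 CPM in DOX, 897 CPM in ATRA and 618 CPM in untreated libraries, and not every marker went its way. LYZ had means of 94.0 CPM in ATRA+DOX, 223 CPM in DOX, 124 CPM in ATRA and 205 CPM in untreated libraries, and MPO of 196 CPM in ATRA+DOX, 249.5 CPM in DOX, 89.9 CPM in ATRA and 153 CPM in untreated libraries. The part of these markers in the results on the chain was not tested. The 6 lymphoid markers summed to 3.28 CPM or less in every library, with CD3E and CD2 at 0 throughout, and the 8 erythroid and megakaryocyte markers to 1.7 CPM or less, with PF4 and PPBP at 0. Fibroblast and epithelial markers summed to 13.7 to 26.1 CPM, nearly all of it KRT8, with EPCAM at 0. In bulk RNA, fewer cells of a type and less RNA per cell cannot be told apart.

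Electrons from NADH enter the chain at complex I and those from succinate at complex II, pass through ubiquinone to complex III, then through cytochrome c to complex IV, where oxygen is reduced, and the proton gradient built on the way drives ATP synthase, complex V. Complexes I, III, IV and V also hold subunits encoded in mitochondrial DNA, while complex II is wholly nuclear. The nuclear subunits are made in the cytosol, imported and joined to the mitochondrial ones with the help of dedicated assembly factors. Acute myeloid leukemia cells are known for a strong reliance on this pathway.

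In untreated cells the members differed widely in level. Per kilobase of transcript, the highest was ATP5F1B, the catalytic beta subunit of ATP synthase, at 652 CPM per kb, next to COX4I1, a complex IV subunit, at 637 CPM per kb. COX6B1 had 419 and UQCRH 412 CPM per kb. The flavoprotein SDHA, for which near-identical pseudogene copies exist, had 5.05 CPM per kb, against 66.1 for its partner SDHB. NDUFV2, a core subunit of complex I, stood at 2.18 CPM per kb. Against it, the core subunits NDUFS1 and NDUFS8 had 68.5 and 72.7 CPM per kb, and NDUFV1, NDUFS3 and NDUFS7 123.5 to 130.1. In the annotation, exons of other genes on either strand cover 28.4% of the exonic length of NDUFV2. The largest overlap is with a transcribed gene on the same strand. The part of that overlap in its low count was not tested.

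Several subunits of complex IV exist as a form known from most tissues and a tissue-restricted one. COX4I2 and COX6A2, known from lung and from heart and muscle, had no count in any library. A count of 0 allows up to 3 counts, that is 1.12 CPM in the shallowest and 0.155 CPM in the deepest library, and such limits cover counting error only. COX7B2 had 1 count over all 12 libraries, COX8C 9 and COX6B2 16. COX7A1, the heart and muscle form, passed the filter with 143 counts in all, while COX7A2, the common form, had 172, 169.5 and 167 CPM in untreated libraries alone. The remaining members that did not pass the filter were NDUFA7 with 76 counts and ATP5MGL with 16. Exons of other genes on either strand cover 33.5% of the exonic length of NDUFA7. The largest overlap is with a protein-coding gene on the same strand.

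The members were also added up in each library. Their summed level was 10941, 11583 and 12553 CPM in the ATRA+DOX libraries and 10786, 13877 and 12714 CPM in the DOX libraries. It was 10950, 11190 and 10105 CPM in the ATRA libraries, against 10190, 10024 and 9427 CPM in the untreated libraries. DOX replicates 2 and 3 and ATRA+DOX replicate 3 were the highest, DOX replicate 1 lay among the ATRA libraries, and ATRA replicate 3 lay below untreated replicate 1. The median member stood 0.22, 0.24 and 0.38 above the untreated mean on the log2 scale in ATRA+DOX libraries, 0.15, 0.57 and 0.39 in DOX libraries and 0.20, 0.19 and 0.07 in ATRA libraries. Medians of the untreated libraries were 0.02, 0.01 and −0.03.

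**Figure D1:**
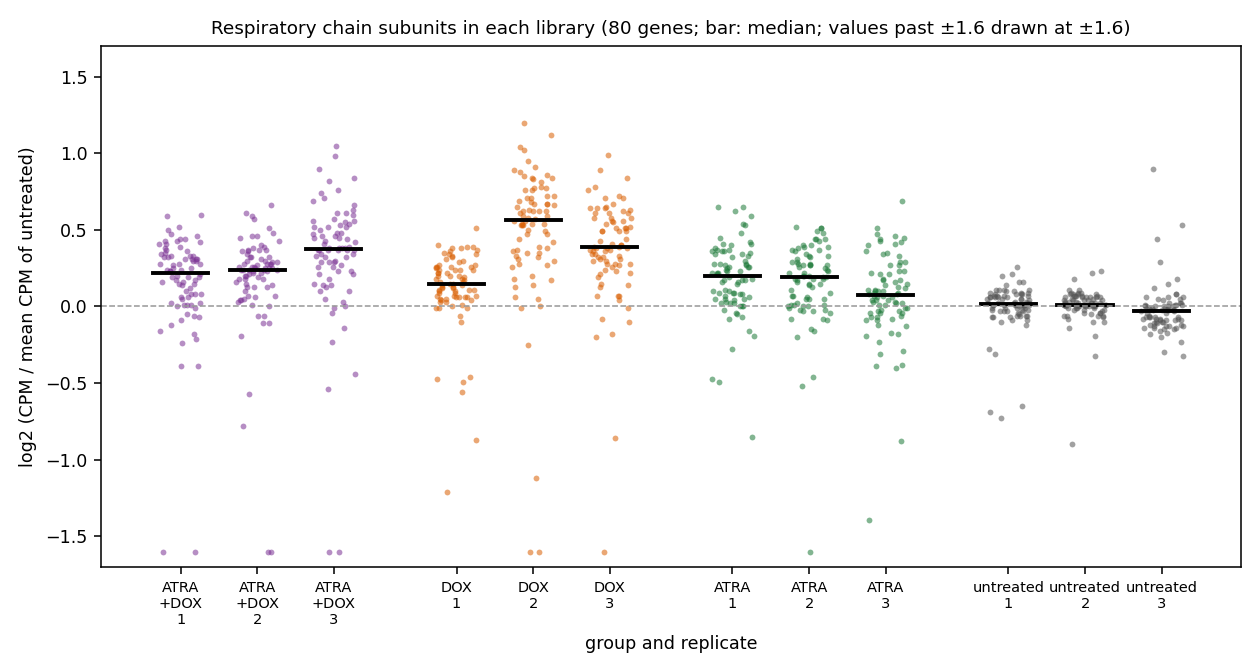
Each point is 1 of 80 member genes in 1 library, as log2 of its CPM over the mean CPM of untreated libraries (y axis), for the 12 libraries by group and replicate (x axis). Black bars are medians; the DOX medians are 0.15, 0.57 and 0.39, so DOX replicate 1 stands apart from the other DOX libraries.

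The share of counts from the mitochondrial ribosomal RNAs differed between the same libraries. It was 1.98%, 2.02% and 1.24% in ATRA+DOX, 2.18%, 1.02% and 1.3% in DOX, 2.09%, 2.75% and 2.64% in ATRA and 2.54%, 2.85% and 4.6% in untreated libraries. The 3 libraries with the lowest shares, DOX replicates 2 and 3 and ATRA+DOX replicate 3, had the 3 highest member medians, and untreated replicate 3, with the highest share, had the lowest. The share also differs between the groups. Counts of members from fits with the share as a covariate are given with each comparison. No such counts are given for the other gene lists, that is mitochondrially encoded, assembly, partner, citric acid cycle, regulator and ribosomal genes. The part of the share in the results was not otherwise tested.

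**Figure D2:**
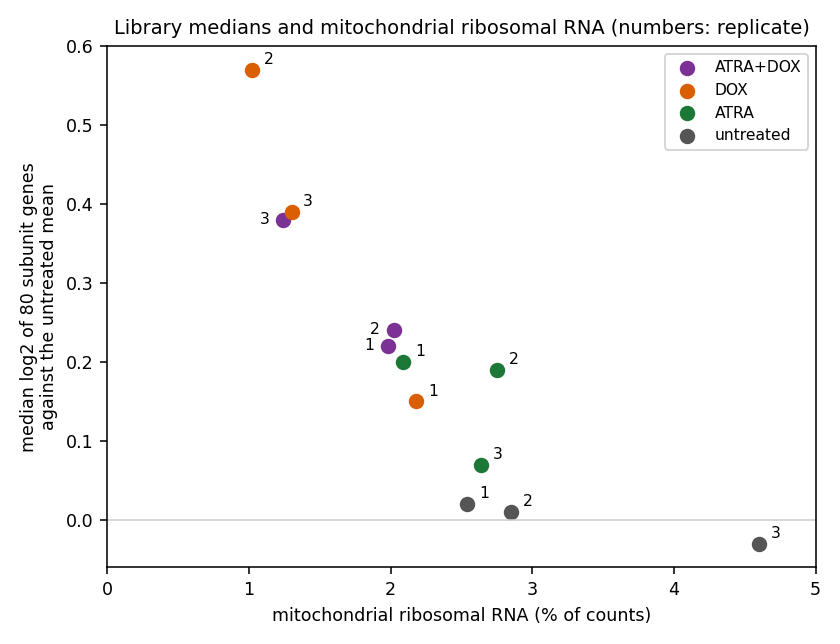
Median log2 level of the 80 members against the untreated mean (y axis) beside the percentage of counts from mitochondrial ribosomal RNA (x axis), 1 point per library, numbered by replicate and coloured by group. The DOX library at 1.02% has a median of 0.57 and the untreated library at 4.6% one of −0.03.

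DOX alone was set against untreated cells to ask what induction of the shRNA does without retinoid. Subunits of every complex rose, by amounts below a doubling: 46 of 80 were called higher and 0 lower (edgeR quasi-likelihood, Benjamini-Hochberg adjusted over all genes tested, threshold 0.05), where 8.08% of all genes tested were called higher, 7.1% lower and 15.2% either way. The change was positive in 73 of 80 members and in 50.7% of all genes. Of the 80, 4 were lower at an unadjusted p under 0.05. DESeq2 also called 0 lower, while some fits given below called up to 3 lower. The median change was 0.39 on the log2 scale, against 0.005 over all genes. In 53 members every DOX library lay above every untreated library and in 1 below, where 17.0% of all genes lay above and 13.9% below. By class, 2 of 7 core and 17 of 28 accessory subunits of complex I, 2 of 4 in complex II, 5 of 10 in complex III, 9 of 13 in complex IV and 11 of 18 in complex V were called higher, with no test between classes. Leaving out 1 library moved the count to 25 (untreated replicate 3) or 17 (DOX replicate 2). In these fits 4.47% and 3.97% of all genes were called either way. Without DOX replicate 1, 63 were called higher and 3 lower, with 26.1% of all genes called. Without untreated replicate 1, 41 were called higher and 3 lower (11.9% of all genes), and without the expression filter 51 and 2 of 85 (7.22%). Leaving out untreated replicate 3 with DOX replicate 3 moved the count to 6, namely ATP5F1E, ATP5MK, NDUFB9, NDUFS4, NDUFB1 and NDUFA6. In that fit the median member change was 0.36 and 1.04% of all genes were called either way. With the mitochondrial ribosomal RNA share as a covariate 0 of 80 were called, and 0.478% of all genes, with a median member change of 0.09.

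**Figure D3:**
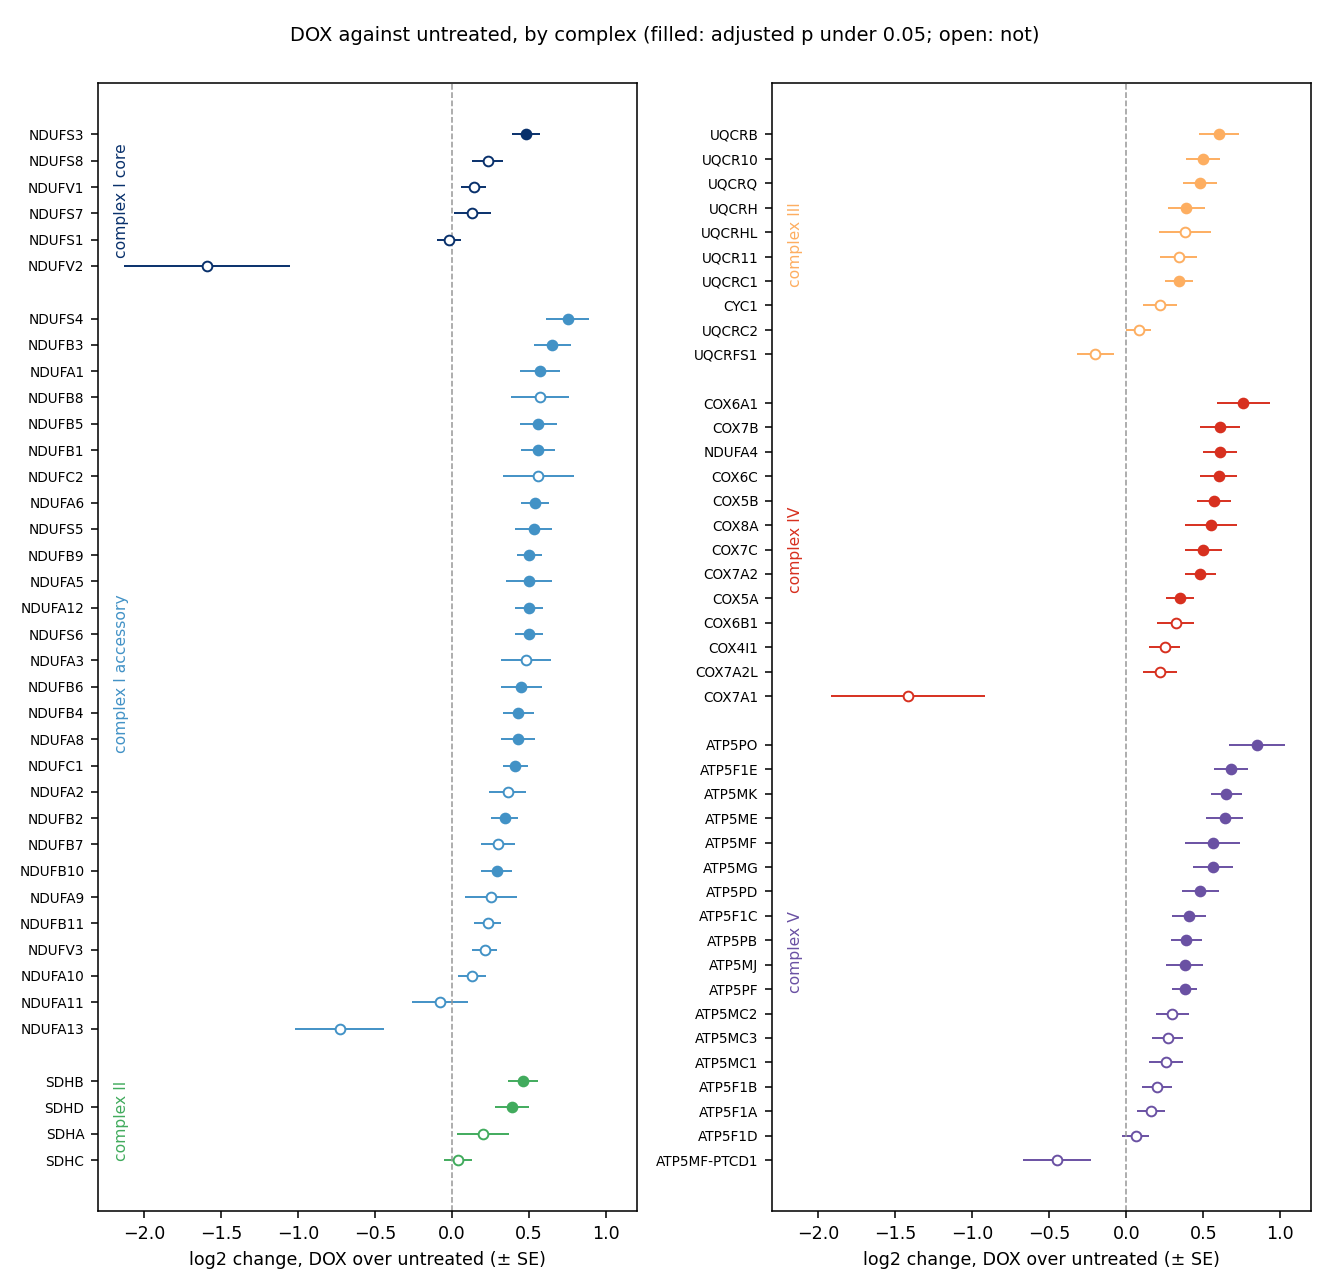
Log2 change of tested members between DOX and untreated cells (x axis, bars are standard errors, n = 3 per group), listed by complex (y axis). Filled circles passed the threshold, open circles did not; changes called run up to 0.85 for ATP5PO, and the 2 values below −1 belong to the scarcely read NDUFV2 and COX7A1.

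The core subunits of complex I include those that bind NADH and carry the iron-sulfur clusters. NDUFS1, the large iron-sulfur subunit, had 166, 162 and 152 CPM in DOX libraries, against 169, 163 and 155 CPM in untreated libraries, so the groups overlapped (log2 change −0.02 ± 0.08, SE, edgeR adjusted p = 0.917). NDUFV1, which binds NADH, had a log2 change of 0.14 ± 0.08 (edgeR adjusted p = 0.246). NDUFS3, of the quinone-binding module, rose. It had 143, 191 and 172 CPM in DOX libraries, against 122, 121 and 121 CPM in untreated libraries, a log2 change of 0.48 ± 0.09 (edgeR adjusted p = 0.00343).

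The accessory subunits of complex I form a shell round the core and are needed for its assembly and stability. NDUFB9 had 255, 280.2 and 289.5 CPM in DOX libraries, against 186, 199 and 197 CPM in untreated libraries, with no overlap (0.50 ± 0.08, edgeR adjusted p = 0.000905). NDUFS4, whose loss in people causes Leigh syndrome, had 44.6, 74.3 and 49.5 CPM in DOX libraries, against 34.3, 35.6 and 32.5 CPM in untreated libraries. Its change of 0.75 ± 0.14 was the largest in this class (edgeR adjusted p = 0.00211), with DOX replicate 2 far above the other DOX libraries. NDUFB3, in the membrane arm, rose by 0.65 ± 0.12 on the log2 scale and NDUFA6, in the matrix arm, by 0.54 ± 0.09 (edgeR adjusted p = 0.0023 and 0.00115). NDUFA1 rose by 0.57 ± 0.13 (edgeR adjusted p = 0.0085). NDUFA10, NDUFV3 and NDUFB11 were among those that did not pass, with 0.13 ± 0.09, 0.21 ± 0.08 and 0.23 ± 0.09.

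Complex II is succinate dehydrogenase, an enzyme of the citric acid cycle as well as of the chain. Its iron-sulfur subunit SDHB had 91.7, 114 and 109 CPM in DOX libraries, against 80.8, 81.3 and 66.6 CPM in untreated libraries (0.46 ± 0.10, edgeR adjusted p = 0.00699). The membrane anchor SDHD had 81.3, 112 and 89.8 CPM in DOX libraries, against 75.3, 77.8 and 65.7 CPM in untreated libraries (0.39 ± 0.11, edgeR adjusted p = 0.0244). DOX replicate 1 lay closest to the untreated libraries in both genes. The other anchor, SDHC, had 110.0, 113.5 and 114 CPM in DOX libraries, against 115, 114 and 99.2 CPM in untreated libraries, and the groups overlapped (0.04 ± 0.09, edgeR adjusted p = 0.785). SDHA had 13.1, 13.3 and 17.7 CPM in DOX libraries, against 9.95, 11.5 and 14.8 CPM in untreated libraries (0.20 ± 0.17, edgeR adjusted p = 0.461).

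In complex III the members that rose were UQCRB, UQCR10, UQCRQ, UQCRH and UQCRC1. UQCRB, which binds near the ubiquinone site, had 316, 507 and 445 CPM in DOX libraries, against 300.3, 291 and 248 CPM in untreated libraries (0.60 ± 0.13, edgeR adjusted p = 0.00632). UQCR10 had 66.1, 89.0 and 83.3 CPM in DOX libraries, against 59.0, 57.2 and 51.5 CPM in untreated libraries (0.50 ± 0.11, edgeR adjusted p = 0.00578), and UQCRQ rose by 0.48 ± 0.11 (edgeR adjusted p = 0.00897). UQCRC1, a large core protein of the complex, rose by 0.34 ± 0.09 (edgeR adjusted p = 0.0187). UQCRH, the hinge protein, rose by 0.39 ± 0.12 (edgeR adjusted p = 0.0303), but its change was −0.03 with the mitochondrial ribosomal RNA covariate. Of the redox subunits, cytochrome c1 (CYC1) had 0.22 ± 0.11 (edgeR adjusted p = 0.151). The Rieske iron-sulfur protein UQCRFS1 had 133, 182 and 161 CPM in DOX libraries, against 191, 182 and 173.5 CPM in untreated libraries, with −0.20 ± 0.12 (edgeR adjusted p = 0.251).

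Complex IV is cytochrome c oxidase. COX6A1, the non-muscle form of a small regulatory subunit, had 25.9, 40.6 and 33.8 CPM in DOX libraries, against 18.2, 20.4 and 20.6 CPM in untreated libraries, without overlap (0.76 ± 0.17, edgeR adjusted p = 0.00681). NDUFA4 had 101, 149 and 129 CPM in DOX libraries, against 85.7, 87.8 and 75.1 CPM in untreated libraries (0.61 ± 0.11, edgeR adjusted p = 0.00227). COX7B, COX6C and COX5B, all small subunits round the mitochondrially encoded core, rose by 0.61 ± 0.13, 0.60 ± 0.12 and 0.57 ± 0.11 on the log2 scale, with edgeR adjusted p from 0.00314 to 0.00464. COX8A rose by 0.55 ± 0.17 (edgeR adjusted p = 0.0351), but its change was −0.11 with the mitochondrial ribosomal RNA covariate. COX7A2L, known for a role in joining complexes III and IV, had 0.22 ± 0.11 (edgeR adjusted p = 0.164). COX4I1, the subunit through which ATP regulates the enzyme, had 475, 583 and 568 CPM in DOX libraries, against 459, 456 and 453 CPM in untreated libraries; the groups did not overlap, but the change of 0.25 ± 0.10 missed the threshold (edgeR adjusted p = 0.0954). COX7A1 had 0.876, 0.494 and 0.384 CPM in DOX libraries, against 0.966, 0.857 and 2.98 CPM in untreated libraries (−1.42 ± 0.50, edgeR adjusted p = 0.0579), its untreated mean resting on replicate 3.

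Complex V has a catalytic head, a central and a peripheral stalk and a membrane part. ATP5F1B had 1248, 1478 and 1396 CPM in DOX libraries, against 1277, 1227 and 1095 CPM in untreated libraries, and the groups overlapped (0.20 ± 0.10, edgeR adjusted p = 0.191). Its partner in the catalytic head, ATP5F1A, had 0.16 ± 0.09 (edgeR adjusted p = 0.236). The gamma subunit ATP5F1C, the rotating shaft, rose by 0.41 ± 0.11 (edgeR adjusted p = 0.0152). ATP5PO, the protein that joins the head to the peripheral stalk, had 21.8, 41.7 and 36.1 CPM in DOX libraries, against 17.8, 17.0 and 19.7 CPM in untreated libraries. Its change of 0.85 ± 0.18 was the largest of the 80 members (edgeR adjusted p = 0.00544). ATP5F1E, the epsilon subunit of the central stalk, had 133.5, 199.8 and 159.7 CPM in DOX libraries, against 105, 109.9 and 95.3 CPM in untreated libraries (0.68 ± 0.11, edgeR adjusted p = 0.00114). ATP5MK and ATP5ME, small membrane subunits, rose by 0.65 ± 0.10 and 0.64 ± 0.12 (edgeR adjusted p = 0.000905 and 0.00344). ATP5F1D, of the central stalk, had 0.06 ± 0.09 and ATP5MC1, a membrane c subunit, 0.26 (edgeR adjusted p = 0.648 and 0.112).

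Promoters of the genes that rose are shown because respiratory subunit genes are known to share binding motifs of NRF1, of ETS factors such as GABP, of ERR-type nuclear receptors, through which RIP140 can act, and of YY1. The windows run from 250 bases before to 50 after the start of each gene, from RefSeq on GRCh38.p14, 5′ to 3′ on the gene's strand. Capitals mark GCGCATG (NRF1), CCGGAAG (ETS), AAGGTCA (ERR) and ATGGCGG (YY1) or their reverse complements. SDHB (chr1:17053983-17054282, minus strand) held all 4 motifs, NDUFS6 (chr5:1801157-1801456, plus strand) and COX6A1 (chr12:120437863-120438162, plus strand) 3 each, and ATP5PO (chr21:33915755-33916054, minus strand), with the largest change, none. SDHD, also called higher with DOX, held all 4 too, and NDUFS7, which was not called, held 3. The windows of SDHD and NDUFS7 are not shown.
SDHB: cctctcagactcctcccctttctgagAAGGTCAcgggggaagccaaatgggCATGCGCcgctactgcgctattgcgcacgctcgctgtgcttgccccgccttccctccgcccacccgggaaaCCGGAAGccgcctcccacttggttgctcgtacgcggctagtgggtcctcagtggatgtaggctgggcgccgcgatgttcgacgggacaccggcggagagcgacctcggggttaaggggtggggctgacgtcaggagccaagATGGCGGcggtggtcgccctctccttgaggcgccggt
NDUFS6: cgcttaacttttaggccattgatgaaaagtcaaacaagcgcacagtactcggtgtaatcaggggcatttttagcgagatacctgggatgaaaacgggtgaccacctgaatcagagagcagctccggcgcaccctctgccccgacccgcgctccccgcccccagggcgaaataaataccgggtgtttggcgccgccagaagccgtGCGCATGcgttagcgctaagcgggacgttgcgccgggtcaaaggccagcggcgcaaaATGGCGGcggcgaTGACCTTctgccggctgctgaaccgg
COX6A1: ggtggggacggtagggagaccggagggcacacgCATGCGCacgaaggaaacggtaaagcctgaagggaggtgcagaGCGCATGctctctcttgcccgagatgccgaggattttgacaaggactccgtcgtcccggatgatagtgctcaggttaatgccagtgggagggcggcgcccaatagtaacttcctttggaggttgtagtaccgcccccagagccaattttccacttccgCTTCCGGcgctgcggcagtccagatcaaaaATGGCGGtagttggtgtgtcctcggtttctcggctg
ATP5PO: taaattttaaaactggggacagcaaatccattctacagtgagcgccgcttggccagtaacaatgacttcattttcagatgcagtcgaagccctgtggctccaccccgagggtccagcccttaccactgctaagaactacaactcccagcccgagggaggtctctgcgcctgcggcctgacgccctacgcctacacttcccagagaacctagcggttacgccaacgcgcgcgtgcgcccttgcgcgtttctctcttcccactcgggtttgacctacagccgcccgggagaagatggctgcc

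The promoter table held 68 of the 87 members. The NRF1 letters, read on both strands, stood in 22.1% of these and in 5.3% of all 27305 symbols of the table, the ETS letters in 30.9% and 12.2%, the ERR letters in 16.2% and 4.8% and the YY1 letters in 30.9% and 6.66%. At least 1 of the 4 stood in 60.3% of members and 24.8% of all. Among members called higher with DOX, 25 of 38 in the table held at least 1, and among members not called, 15 of 25. By motif, NRF1 stood in 12 of 38 called and 3 of 25 not called, ETS in 14 and 7, ERR in 9 and 2, and YY1 in 11 and 9. These matches describe letters in a window and are no evidence of binding.

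ATRA alone was set against untreated cells to ask what the retinoid does with the shRNA off. Of 80 members 15 rose and 0 fell (edgeR; 1 was lower at an unadjusted p under 0.05 and DESeq2 called 0 lower). That is 18.8% called higher, near the 15.7% of all genes called higher in this comparison, where 28.9% were called either way. The median change of members was 0.17. Without the expression filter, or with the compared groups alone, 1 member was called lower. The same number was called lower without untreated replicate 1, ATRA replicate 1 or DOX replicate 2. NDUFV3, an accessory subunit, had 68.2, 68.0 and 65.5 CPM in ATRA libraries, against 45.7, 51.7 and 48.9 CPM in untreated libraries, without overlap (0.46 ± 0.08, edgeR adjusted p = 0.00019). NDUFB1 had 59.3, 58.6 and 54.5 CPM in ATRA libraries, against 39.1, 41.7 and 42.5 CPM in untreated libraries (0.48 ± 0.11, edgeR adjusted p = 0.00178).

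Other members that rose with ATRA came from every complex. Among core subunits of complex I, NDUFS8, an iron-sulfur protein, had 76.3, 69.7 and 66.7 CPM in ATRA libraries, against 57.1, 57.3 and 58.1 CPM in untreated libraries (0.30 ± 0.09, edgeR adjusted p = 0.0185). SDHB rose by 0.35 ± 0.10, UQCRQ by 0.35 ± 0.11, UQCR11 by 0.33 ± 0.12, NDUFA4 by 0.36 ± 0.11 and ATP5F1E by 0.39 ± 0.11 on the log2 scale, with edgeR adjusted p from 0.0108 to 0.0412. NDUFA4 and ATP5F1E were the sole members called of 13 in complex IV and of 18 in complex V. The number of members called in either direction was 9 without untreated replicate 1 or 2, 5 without untreated replicate 3, 8 and 9 without ATRA replicates 1 and 2, and 23 without DOX replicate 1. In these fits 20.8% to 32.3% of all genes were called either way. With the mitochondrial ribosomal RNA covariate 9 rose and 2 fell, where 15.8% of all genes were called higher and 28.4% either way.

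Cells given both agents were then set against untreated cells. Of 80 members 41 rose and 2 fell (edgeR), where 19.6% of all genes were called higher and 38.0% either way, and the median change was 0.30. The change was positive in 69 of 80 members and in 49.1% of all genes. Those that rose were 3 of 7 core and 17 of 28 accessory subunits of complex I, 2 of 4 in complex II, 4 of 10 in complex III, 8 of 13 in complex IV and 7 of 18 in complex V. NDUFC1, a small membrane-arm subunit of complex I, had 85.1, 85.6 and 95.3 CPM in ATRA+DOX libraries, against 56.9, 56.2 and 55.2 CPM in untreated libraries, the largest rise (0.66 ± 0.08, edgeR adjusted p = 2.02e-06). NDUFB1 rose by 0.64 ± 0.11, COX6A1 by 0.65 ± 0.17 and NDUFA6 by 0.55 ± 0.09 (edgeR adjusted p = 8.49e-05, 0.00428 and 5.79e-05).

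The members that fell were scarcely read. NDUFV2 had 0.601, 0.562 and 0.325 CPM in ATRA+DOX libraries, against 1.26, 1.89 and 2.93 CPM in untreated libraries (−2.0 ± 0.52, edgeR adjusted p = 0.00511). COX7A1 had 0.481, 0.241 and 0.325 CPM in ATRA+DOX libraries, against 0.966, 0.857 and 2.98 CPM in untreated libraries (−2.21 ± 0.52, edgeR adjusted p = 0.0023). Untreated replicate 3 was the highest in both. Without it 23 members rose and 0 fell, and without ATRA+DOX replicate 3 the counts were 24 and 2. In these fits 14.9% and 15.6% of all genes were called higher, and 26.9% and 28.5% either way. With the mitochondrial ribosomal RNA covariate 6 rose and 1 fell, where 12.3% of all genes were called higher and 20.9% either way, and the median member change was 0.05.

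**Figure D4:**
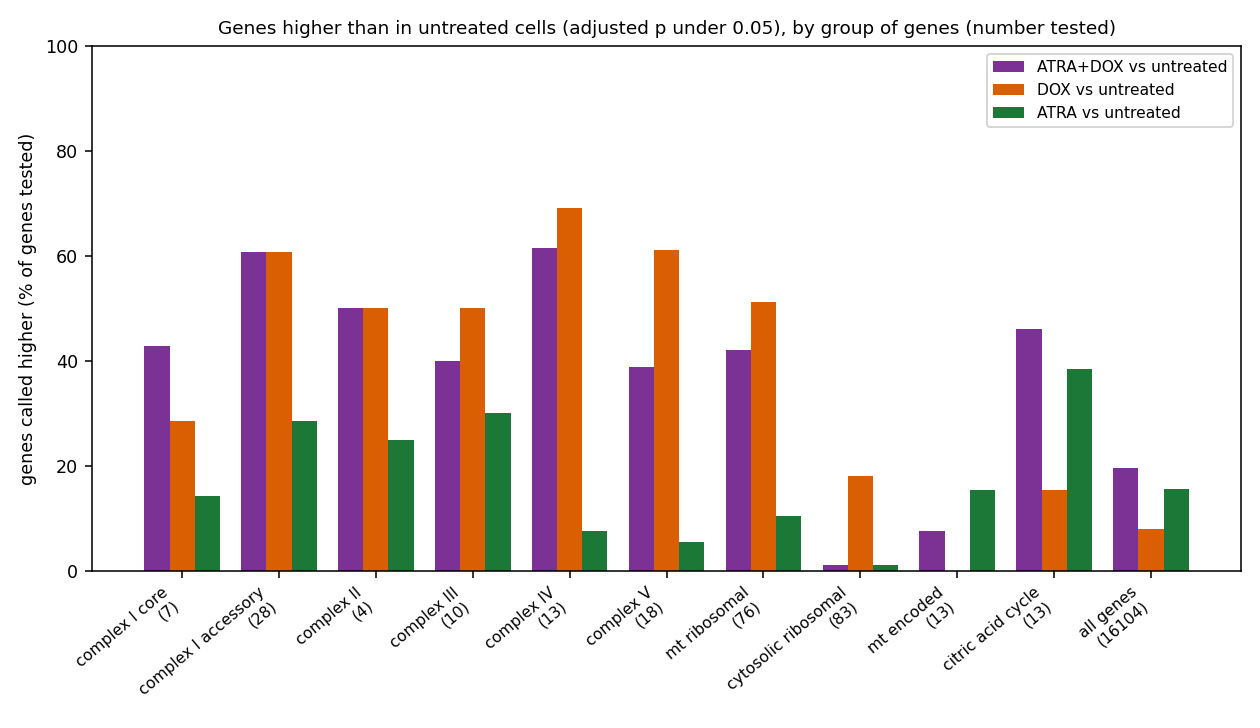
Percentage of tested genes called higher than in untreated cells (y axis) for ATRA+DOX, DOX and ATRA, by class of respiratory chain members and for mitochondrial (mt) ribosomal, cytosolic ribosomal, mitochondrially encoded and citric acid cycle genes, with all genes at the right (number tested in brackets). With DOX 69.2% of complex IV members and 8.08% of all genes were called higher.

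The effect of DOX was also read in the presence of ATRA, from ATRA+DOX against ATRA. Here 3 of 80 members rose and 0 fell (edgeR; 2 were lower at an unadjusted p under 0.05, and DESeq2 called 3 higher and 0 lower), that is 3.75% against 1.89% of all genes called higher and 4.43% either way. NDUFC1 had 85.1, 85.6 and 95.3 CPM in ATRA+DOX libraries, against 71.2, 67.3 and 64.9 CPM in ATRA libraries, without overlap (0.38 ± 0.08, edgeR adjusted p = 0.0069). NDUFB9 had 258, 261.5 and 282 CPM in ATRA+DOX libraries, against 229, 221 and 210.4 CPM in ATRA libraries (0.28 ± 0.08, edgeR adjusted p = 0.0461). ATP5MC3, which encodes the proton-carrying c subunit of ATP synthase, had 238, 263.5 and 291 CPM in ATRA+DOX libraries, against 213, 212.3 and 202 CPM in ATRA libraries (0.34 ± 0.09, edgeR adjusted p = 0.0458). The median member changed by 0.12. The count was 1 without untreated replicate 1 or 2, ATRA replicate 1 or 2, DOX replicate 3 or ATRA+DOX replicate 2. It was 0 without ATRA replicate 3 or ATRA+DOX replicate 3. In these fits 1.58% to 3.62% of all genes were called either way. With the mitochondrial ribosomal RNA covariate 1 rose and 1 fell, 3.71% of all genes were called either way, and the median member change was −0.03.

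A test of the difference between both DOX effects (with ATRA minus without) called 0 of 80 members with edgeR, against 0.267% of all genes. Of all genes 0.0435% were called higher, and DESeq2 called 1 member. At an unadjusted p under 0.05 there were 27 of 80 members, all 27 negative, and 1735 of all 16104 genes in either direction. The median of this difference was −0.26, and it was positive in 8 of 80 members and in 48.8% of all genes. ATP5F1E had the smallest adjusted p. Its level was 129, 134 and 137 CPM in ATRA+DOX libraries, against 127, 148 and 132 CPM in ATRA libraries, and 133.5, 199.8 and 159.7 CPM in DOX libraries, against 105, 109.9 and 95.3 CPM in untreated libraries, a difference of −0.70 ± 0.16 (edgeR adjusted p = 0.0646). For ATP5PO the difference was −0.80 ± 0.25 (edgeR adjusted p = 0.24). Without DOX replicate 1, the DOX library nearest to the untreated ones, 23 members passed the threshold, each lower, and 4.51% of all genes did, 2.5% higher. With the mitochondrial ribosomal RNA covariate the median difference was −0.11.

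**Figure D5:**
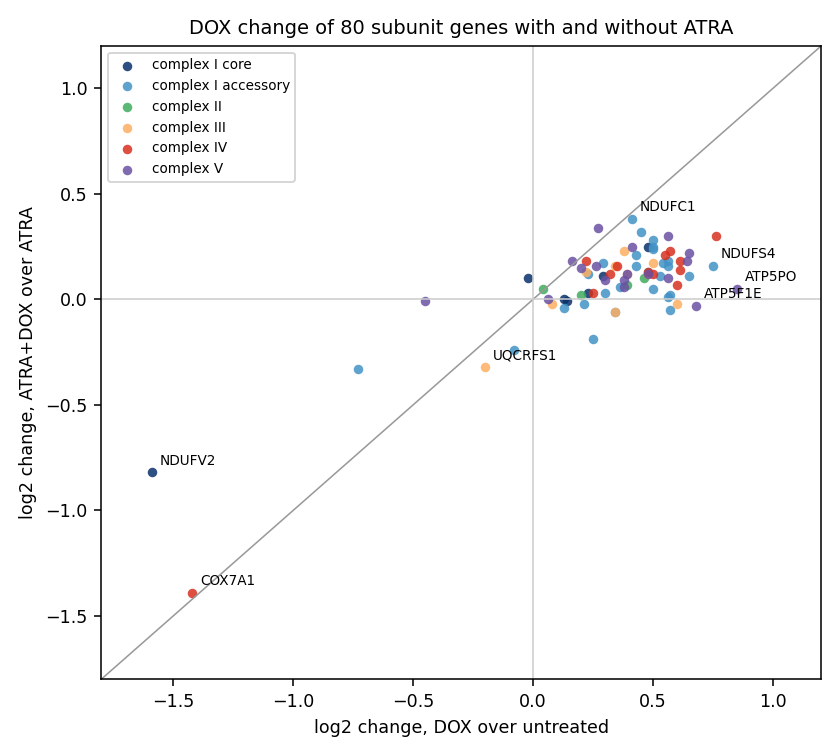
Log2 change of 80 members with DOX in the presence of ATRA (ATRA+DOX over ATRA, y axis) and without it (DOX over untreated, x axis), coloured by complex; the line marks equal change. The change was larger without ATRA in 72 members, and 62 were positive on both axes.

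Between the groups given DOX, ATRA+DOX against DOX, 1 member rose and 3 fell (edgeR), where 10.7% of all genes were called higher, 8.24% lower and 19.0% either way. NDUFC1 again rose, with 85.1, 85.6 and 95.3 CPM in ATRA+DOX libraries, against 72.1, 79.0 and 71.0 CPM in DOX libraries (0.25 ± 0.08, edgeR adjusted p = 0.036). NDUFS4 had 42.6, 40.9 and 44.6 CPM in ATRA+DOX libraries, against 44.6, 74.3 and 49.5 CPM in DOX libraries (−0.43 ± 0.13, edgeR adjusted p = 0.028). ATP5MK had 187, 187 and 209.7 CPM in ATRA+DOX libraries, against 195, 261 and 276 CPM in DOX libraries (−0.32 ± 0.10, edgeR adjusted p = 0.0352). ATP5MC2, another c-subunit gene, fell by 0.33 on the log2 scale (SE 0.11, edgeR adjusted p = 0.0467). In ATP5MK and ATP5MC2 the groups overlapped. The median member changed by −0.12. The number called was 26, all lower, without DOX replicate 1, where 23.6% of all genes were called either way and 13.2% higher. Without DOX replicate 2 the median was 0.02. With the mitochondrial ribosomal RNA covariate 2 rose and 3 fell, and 21.3% of all genes were called. The number called was 2 without untreated replicate 1 or 2 or any 1 ATRA replicate. It was 1 without DOX replicate 2, DOX replicate 3 or ATRA+DOX replicate 1, and 0 without ATRA+DOX replicate 2. In these leave-out fits 13.2% to 17.5% of all genes were called either way.

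The mitochondrially encoded partners of these subunits were read in the same libraries. Their 13 genes summed to 21248, 16300 and 13857 CPM in ATRA+DOX, 19902, 20060 and 20845 CPM in DOX, 22866, 23612 and 27233 CPM in ATRA and 20170, 20324 and 23039 CPM in untreated libraries. In DOX against untreated cells edgeR and DESeq2 called 0 of 13 in either direction, while 2 were higher and 1 lower at an unadjusted p under 0.05, and the median change was −0.07. In ATRA against untreated cells edgeR and DESeq2 called 2 of 13 higher, against 15.7% of all genes (edgeR), with a median of 0.23. In ATRA+DOX against untreated cells edgeR called 1 higher and 3 lower, with a median of −0.28, and DESeq2 called 0 higher and 7 lower. There edgeR called 19.6% of all genes higher and 18.5% lower. In ATRA+DOX against ATRA 5 of 13 fell, where 2.54% of all genes were called lower, and the median change was −0.48, and DESeq2 called 7 lower. MT-ND4, a membrane core subunit of complex I, had 1901, 1263 and 998 CPM in ATRA+DOX libraries, against 2110.4, 2267 and 2859 CPM in ATRA libraries (−0.80 ± 0.17, edgeR adjusted p = 0.0082). MT-CO1, the catalytic subunit of complex IV, had 5735, 4215 and 3471 CPM in ATRA+DOX libraries, against 6226, 7118 and 7394 CPM in ATRA libraries (−0.63 ± 0.15, edgeR adjusted p = 0.0171). MT-ND1, MT-CYB and MT-ATP6 also fell, by 0.46, 0.55 and 0.48 on the log2 scale (edgeR adjusted p = 0.0415, 0.0256 and 0.0318).

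Of the factors that build the complexes, those called higher in DOX against untreated cells were 5 of 18 for complex I, 1 of 4 for complex II, 1 of 9 for complex III, 7 of 26 for complex IV and 1 of 5 for complex V, where 8.08% of all genes were called higher. With ATRA 4 of 18 rose for complex I, 2 of 9 for complex III, 6 of 26 for complex IV and 1 of 5 for complex V, against 15.7% of all genes, and NDUFAF2 and SDHAF3 fell (−0.53 and −0.29, edgeR adjusted p = 0.00638 and 0.0427). ATP5IF1, the inhibitor of ATP synthase, had 105, 130.2 and 138 CPM in DOX libraries, against 82.5, 82.4 and 74.6 CPM in untreated libraries (0.63 ± 0.09, edgeR adjusted p = 0.000638). The complex IV factors with the smallest adjusted p were CMC1, SCO2, COA3 and COX14, which rose with DOX by 0.37, 0.45, 0.48 and 0.67 (edgeR adjusted p = 0.0109, 0.0129, 0.0193 and 0.0202). With DOX NDUFAF1, an early complex I factor, rose by 0.49 ± 0.09 and SDHAF3, which serves the iron-sulfur subunit of complex II, by 0.48 ± 0.10 (edgeR adjusted p = 0.00315 and 0.00597). UQCC2, a complex III factor, had 83.6, 73.6 and 70.0 CPM in ATRA libraries, against 39.5, 39.1 and 40.3 CPM in untreated libraries (0.94 ± 0.11, edgeR adjusted p = 5.86e-07). SURF1, a complex IV factor, rose by 0.85 ± 0.11 with ATRA (edgeR adjusted p = 5.78e-06).

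Among partners of the chain, cytochrome c (CYCS) rose by 0.35 ± 0.10, the acyl carrier NDUFAB1 by 0.36 ± 0.11 and ETFA, which feeds electrons from fatty acid oxidation, by 0.31 ± 0.09 with DOX (edgeR adjusted p = 0.0299, 0.0344 and 0.0265), 3 of 7 tested. Of 13 citric acid cycle genes, 2 rose with DOX and 5 with ATRA, where 8.08% and 15.7% of all genes were called higher, including OGDH with ATRA (0.53 ± 0.09, edgeR adjusted p = 0.000118). Of 15 tested regulators of mitochondrial biogenesis, NRIP1 included, 1 rose and 2 fell with DOX. In that comparison 8.08% of all genes were called higher, 7.1% lower and 15.2% either way. The 2 that fell were NRIP1 itself, the target of the shRNA, and PPARGC1B. ESRRA, which encodes the ERR alpha receptor, had 115, 114 and 109 CPM in DOX libraries, against 84.4, 93.2 and 86.7 CPM in untreated libraries (0.36 ± 0.08, edgeR adjusted p = 0.00864). PPARGC1B, a coactivator of the same receptors, had 42.5, 29.8 and 33.8 CPM in DOX libraries, against 49.5, 46.5 and 49.2 CPM in untreated libraries (−0.45 ± 0.12, edgeR adjusted p = 0.0155). NRF1 had −0.04, TFAM −0.17 and YY1 −0.01 on the log2 scale, and none of these passed the threshold.

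Genes outside the chain moved in the same comparison. With DOX 39 of 76 mitochondrial ribosomal protein genes rose (median 0.34) and 15 of 83 cytosolic ones (median 0.22). Of all genes 8.08% were called higher there. With the mitochondrial ribosomal RNA covariate 0.478% of all genes were called either way in DOX against untreated cells. For these lists, and those of assembly factors, partners and regulators, counts with the covariate are not given. In ATRA+DOX against untreated cells 32 of 76 mitochondrial ribosomal genes rose and 1 fell, while 1 of 83 cytosolic ones rose and 3 fell. In that comparison 19.6% of all genes were called higher and 18.5% lower. The library medians of both lists were highest in DOX replicates 2 and 3, at 0.47 and 0.36 for mitochondrial and 0.43 and 0.30 for cytosolic ribosomal genes. Most members have short transcripts. Of members under 700 bases 20 of 25 rose with DOX (median 0.50), against 31.8% of all protein-coding genes of that length (median 0.28), and of members of 2000 bases or more 4 of 15 rose (median 0.21), against 5.94% (median −0.01). Of members with no exon shared with another gene 23 of 37 rose with DOX, and of those with over 20% shared 10 of 16.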

How the data were processed

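RNA of 12 MOLM14 libraries was sequenced in paired-end mode, and the authors deposited raw read counts per Ensembl gene. FastQC, STAR, HTSeq and GRCh38 are named per the submitters' processing notes. Versions, gene annotation and whether reads were counted by strand are not given in the sources used here, so where genes overlap, on either strand, their reads may be mixed. Of 61487 identifiers, 61369 matched a current symbol, and 58312 matched GENCODE release 29, used for lengths and exon overlap. The count table also held 23 empty columns.

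Counts were TMM-scaled and fitted in edgeR 4.0.16 (R 4.3.3) by quasi-likelihood, with all 4 groups in 1 fit and no block, after edgeR's default expression filter (16104 genes). P-values were Benjamini-Hochberg adjusted over all genes tested, with a threshold of 0.05, and SE is the log2 change over the root of F. Fits were also run on counts simulated from the measured means and spreads, with results not given here. Simulated libraries of a group differed only by depth and independent spread, so these runs do not bear on shifts when libraries are left out. Library totals of 2685984 to 19358619 counts differed 7.21 times, and limits from counts cover counting error only. Replicate numbers were not taken to pair the samples. Same-number correlations ran from −0.244 to 0.267, with 4 of 18 over 0.1, and other correlations between groups from −0.248 to 0.334. These values cannot tell whether same-number samples were prepared together.

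Alternatives were DESeq2 1.42.0, other scalings, no filter, the compared groups alone, equal depth, a replicate block, the mitochondrial ribosomal RNA share as a covariate, a length offset and leaving out libraries. Members, gene lists and tests were chosen with earlier results of these data known. Genes were named by smallest adjusted p per complex and comparison, with all of complex II, the isoform pairs of complex IV, the members not tested and the extremes per length. ATP5F1A, ATP5F1D, ATP5MC1, CYC1, NDUFA10, NDUFB11, NDUFS6, NDUFS7, NDUFV1, NRF1, TFAM, YY1, CEBPA, LYZ and MPO were named outside this rule, after their values were seen. Promoter sequences are RefSeq's on GRCh38.p14. Some genes are not reported here by name and are left out of the plot of changes by complex, while counts over members include them.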

Additional observations from a re-analysis of the deposited data

How the results depend on the processing

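The number of members called for ATRA against untreated cells, 15 in the report, was 26 without the expression filter, 28 with the compared groups alone, 9 at equal depth, 5 without untreated replicate 3 and DOX replicate 3, and 5 to 23 when 1 library was left out. For DOX against untreated cells (46) it was 0 with the mitochondrial ribosomal RNA share as a covariate, 6 without that pair of libraries, and 17 to 66 with 1 library left out. For ATRA+DOX against ATRA (3) it was 1 at equal depth, with the replicate block or without that pair, and 0 to 4 with 1 library left out. For ATRA+DOX against DOX (4) it was 0 with the compared groups alone, 1 without that pair, and 0 to 26 with 1 library left out. For ATRA+DOX against untreated cells (43) it was 26 at equal depth, 7 with the covariate, 19 without that pair, and 23 to 51 with 1 library left out. For the difference between the DOX effects (0) it was 6 without the filter, 1 at equal depth, with the replicate block or with DESeq2, and 0 to 23 with 1 library left out. The replicate block gave 47 for DOX against untreated cells, and the replicate numbers were not taken to pair the samples. With 1 library left out, the share of all genes called either way also moved. It ran from 20.8% to 32.3% for ATRA and from 3.97% to 26.1% for DOX, each against untreated cells. For ATRA+DOX it ran from 26.9% to 41.3% against untreated cells, 1.58% to 6.21% against ATRA and 13.2% to 23.6% against DOX. For the difference between the DOX effects it ran from 0.0599% to 4.51%. In the other fits this share for ATRA against untreated cells (28.9% in the report) was 12.4% unfiltered and 36.6% with the compared groups alone. At equal depth it was 21.0%, and 21.2% without that pair of libraries. For DOX against untreated cells (15.2%) it was 0.478% with the covariate, 14.6% with the replicate block and 1.04% without that pair. For ATRA+DOX against untreated cells (38.0%) it was 26.9% at equal depth, 20.9% with the covariate and 26.1% without that pair. For ATRA+DOX against ATRA (4.43%) it was 3.27% at equal depth, 4.53% with the replicate block and 3.85% without that pair. For ATRA+DOX against DOX (19.0%) it was 14.6% with the compared groups alone and 16.0% without that pair. For the difference between the DOX effects (0.267%) it was 0.527% unfiltered, 0.118% at equal depth, 0.335% with the block and 0.86% with DESeq2. The cause of these shifts was not tested. NRIP1 in ATRA against untreated cells was −0.33 and missed the threshold at equal depth, and −0.51 to −0.29 with 1 library left out. Its difference between DOX effects was 0.43 to 0.70. UQCRH (−0.03) and COX8A (−0.11) changed sign in DOX against untreated cells with the covariate. Of 76 called results on named genes, 55 missed the threshold with the covariate and 49 without that pair of libraries. The shallowest library, DOX replicate 3, limits members under about 1.12 CPM.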
